A study of Homo sapiens with 18 samples.

Results

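CDX1, CDX2, CDX4, NKX1-2 and EVX1 are homeobox transcription factor genes of the tail end of the early embryo. These 5 genes were found by symbol among the 37550 rows of a table of TPM values, transcript abundance per transcript length scaled to a fixed total in each library. They were selected on their TPM levels across the 9 groups of cultures, so those levels are given as a description, with no test. The 5 genes were all among the 17033 genes that reached 1 TPM in 2 or more libraries, and each passed that filter through the groups in which it was high.

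The CDX proteins are expressed in the posterior embryo, where WNT, FGF and retinoic acid signals are known to switch their genes on, and they activate HOX genes of the trunk. CDX2 also marks the trophectoderm and, later, the intestinal epithelium. NKX1-2 is expressed in the caudal epiblast beside the node, which holds progenitors of both spinal cord and paraxial mesoderm. EVX1 is a gene of the posterior primitive streak and later of a class of spinal interneurons.

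The cells were wild-type H1, an established human embryonic stem cell line, so a single genetic background was sampled. Undifferentiated cells (hPSC) were taken at day 0. On day 1 all other cultures received A8301 at 1 µM and LDN193189 at 100 nM, inhibitors of TGF-beta and BMP receptors, with the MEK inhibitor trametinib at 250 nM and C59 at 1 µM, which blocks WNT secretion. On day 2 A8301 and LDN193189 were kept and thiazovivin was added for survival. Anterior neural ectoderm (aNE) then also received C59 at 1 µM. Posterior neural ectoderm (pNE) instead received FGF2 at 20 ng/mL, XAV939 at 1 µM, an inhibitor of WNT signalling, and 50 nM of TTNPB, which activates retinoic acid receptors. Cells of either origin were carried to day 4 in a forebrain medium (aNE_T, pNE_T), a midbrain medium (aNE_M, pNE_M) or a hindbrain medium (aNE_H, pNE_H). On day 3 the forebrain medium held XAV939, LDN193189 and FGF2. What the other media contained is not given in the sources used here. Plating density was 37500 cells per cm2 for cells taken at day 2, and for cells taken at day 4 it was 75000 for anterior and 150000 for posterior origin, so origin and density cannot be told apart at day 4. Each group had 2 biological replicates, giving 18 libraries of poly-A RNA from bulk cultures.

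TPM keeps no read numbers, so the depth of the libraries is unknown and no detection limit can be given for a value of 0. Between 13686 and 14679 genes reached 1 TPM in a library. Pearson's r over the 17033 genes lay between 0.982 and 0.987 for replicate pairs, and between 0.879 and 0.968 for pairs from separate groups. The pNE_M label was checked against marker genes. SOX2, a neural and pluripotency factor, averaged 115 TPM there, NES 213 TPM and CDH2 105 TPM. Markers of a maturing neural plate were low, with PAX6 at 0.370 TPM, SOX1 at 1.19 TPM and SOX3 at 2.43 TPM. Both pNE_M libraries listed the midbrain gene EN1 at 0, and it averaged 135 TPM in aNE_M, so the group labelled midbrain of posterior origin showed no value for a defining midbrain marker, at an unknown depth.

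CDX2 was high in 1 group. The pNE_M libraries held 247 and 252 TPM, a mean of 249 ± 3.67 (SD, n = 2). The pNE_H libraries held 3.34 and 4.39 TPM, the aNE_M libraries 1.76 and 1.67 TPM, and no library of the other 6 groups exceeded 1.12 TPM. The mean of pNE_M was 64.5-fold that of pNE_H, the second group, and 145-fold that of aNE_M, the third. These 3 groups did not overlap and stood further apart than their summed SDs. Below them, pNE_T (0.274 and 1.12 TPM), aNE_H (0.789 and 0.152 TPM) and aNE_T (0.411 and 0.334 TPM) overlapped. CDX2 was lower still at day 2, with 0.158 and 0.0490 TPM in pNE and 0.162 and 0 TPM in aNE, and in hPSC it was listed at 0.0238 and 0 TPM.

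CDX1, the paralogue that acts beside CDX2 in the posterior embryo, was likewise high in 1 group. It reached 127 and 98.6 TPM in pNE_M, a mean of 113 ± 20.0 (SD, n = 2), and aNE_M came second with 0.677 and 0.889 TPM, 144-fold lower in the mean. The pNE_H libraries followed with 0.445 and 0.214 TPM and pNE_T with 0.212 and 0.114 TPM. In the other 5 groups CDX1 stayed at or below 0.151 TPM, each overlapped the next in rank, and both aNE libraries were at 0. In pNE_M both CDX2 libraries lay above both CDX1 libraries on the TPM scale. Across the 18 libraries CDX1 and CDX2 had a Pearson's r of 0.971 on log2(TPM + 1), a description that rests on the pNE_M libraries.

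CDX4, the X-linked member of the family, had another order. Its highest level was in undifferentiated cells, at 2.43 and 2.75 TPM, a mean of 2.59 ± 0.224 (SD, n = 2). The pNE_M libraries came second at 0.414 and 0.603 TPM, 5.10-fold below hPSC in the mean and without overlap. The day-2 groups held 0.145 and 0.113 TPM in pNE and 0.146 and 0.107 TPM in aNE and overlapped. Both aNE_T libraries (0.0629 and 0.0597 TPM) and both pNE_H libraries (0.0444 and 0.0587 TPM) were lower again. CDX4 was listed at 0 in all libraries of aNE_M, aNE_H and pNE_T. In the pNE_M cultures CDX4 therefore stayed at 0.603 TPM or less, beside CDX1 at 98.6 TPM or more.

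NKX1-2 was present both in undifferentiated cells and in midbrain medium. Its TPM was 28.8 and 30.4 in hPSC, a mean of 29.6 ± 1.13 (SD, n = 2), and 20.1 and 12.6 in pNE_M, a mean of 16.4 ± 5.28. The aNE_M libraries (6.97 and 6.55 TPM) and the day-2 pNE libraries (6.94 and 6.19 TPM) overlapped. A further step down, aNE_H (1.34 and 1.87 TPM) and aNE (1.55 and 1.23 TPM) overlapped as well. NKX1-2 stood at 0.455 and 0.490 TPM in pNE_H, 0.250 and 0.194 TPM in aNE_T, and 0 and 0.175 TPM in pNE_T. At day 2 the mean of pNE was 4.73-fold that of aNE. NKX1-2 was the single gene of the 5 with a higher, non-overlapping level in pNE than in aNE. Of all 17033 genes, 4266 were higher without overlap in this comparison, so nothing is read from that count. An antisense gene overlaps NKX1-2 in the GENCODE annotation, and without strand information reads of the pair cannot be told apart.

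EVX1 was the gene of the 5 that peaked in cells of anterior origin. It reached 5.83 and 5.11 TPM in aNE_M, a mean of 5.47 ± 0.511 (SD, n = 2), against 1.52 and 1.95 TPM in pNE_M, 3.15-fold lower without overlap. In the remaining 7 groups EVX1 did not exceed 0.281 TPM, and it was at 0 in every hPSC, pNE_T and pNE_H library. The long noncoding gene EVX1-AS overlaps EVX1 on the opposite strand, so the same limit holds for its values. Of the paralogues, EVX2 was listed at 0 in all 18 libraries and NKX1-1 was above 0 in 1 hPSC library, at 0.135 TPM.

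**Figure D1:**
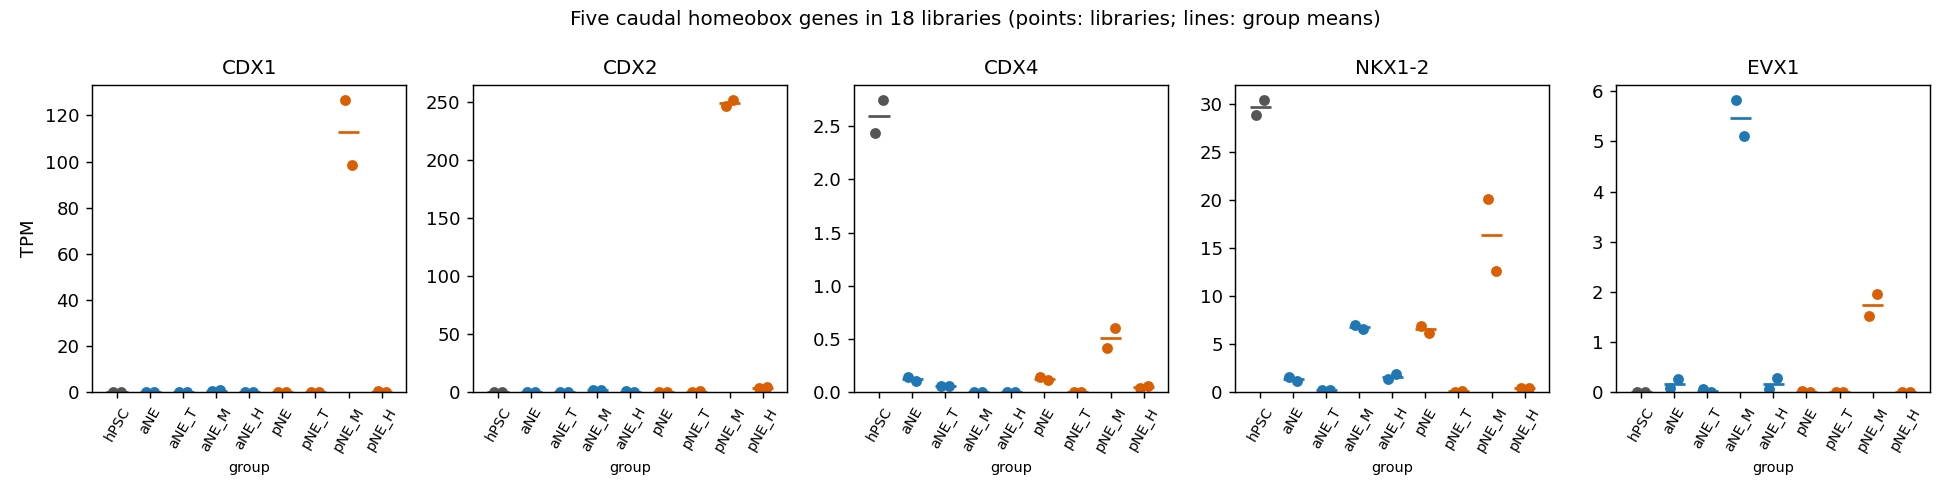
TPM (vertical axes, linear, a separate scale for each gene) in each of the 9 groups for CDX1, CDX2, CDX4, NKX1-2 and EVX1. Points are libraries, lines are means of 2 libraries, and grey, blue and orange are undifferentiated cells, anterior origin and posterior origin. CDX1 and CDX2 stand at 98.6 TPM or more in pNE_M and at 4.39 TPM or less elsewhere, CDX4 and NKX1-2 are highest in hPSC, and EVX1 is highest in aNE_M.

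The gap between the highest and the second highest group mean on the log2(TPM + 1) scale was used to set these patterns beside all genes, as a description. It was 5.99 for CDX1 and 5.69 for CDX2, the 4th and 7th largest gaps of 17033 genes. Among the 1272 genes whose highest mean was in pNE_M they ranked 3rd and 5th. HOXB6 and HOXB9, trunk HOX genes, held ranks 1 and 2 there. The gaps of CDX4 (1.25), EVX1 (1.24) and NKX1-2 (0.85) were ranks 635, 641 and 1384 of 17033.

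The genes whose log2(TPM + 1) followed each of the 5 most closely over the 18 libraries were taken as the 5 with the highest Pearson's r, with no test. For CDX1 these were PLSCR5 (r = 0.997), URAD (0.996), HOXB8, HOXB9 and HOXA7 (0.992 to 0.995), all highest in pNE_M. For CDX2 they were EDAR (0.984), CD226, CDX1, DMRT2 and URAD (0.965), again all highest in pNE_M. CDX4 was followed by TACR3 (0.972), TNFSF11, the NANOG pseudogene NANOGP1, LYPD3 and GRIN2D (0.956), all highest in hPSC. The r values of the closest genes were lower for NKX1-2, which was followed by CHCHD10 (0.944), the taurine transporter gene SLC6A6, SLCO4C1, PBDC1 and B4GALT5 (0.922). EVX1 was followed by SRARP (0.986), SP7, the mesoderm genes TBXT (0.978) and MIXL1 (0.978), and SP9, all highest in aNE_M. Over the 9 group means instead, 4, 3, 3, 2 and 4 of the 5 genes were again among the closest 5 of CDX1, CDX2, CDX4, NKX1-2 and EVX1.

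The 5 genes lie on 5 chromosomes in the GRCh38.p14 assembly of RefSeq, which shares coordinates with hg38, the build named in the submitters' processing notes. CDX1 is at chr5:150166778-150184558, CDX2 at chr13:27960918-27969315 on the minus strand, and CDX4 at chrX:73447053-73455171. NKX1-2 is at chr10:124445243-124450035 on the minus strand. EVX1 is at chr7:27242802-27247830, 42.71 kb beyond HOXA13 at the end of the HOXA cluster. HOXA13 did not follow EVX1, since its highest group mean was 0.00822 TPM, in pNE.

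The 250 bases before the annotated start were examined in the RefSeq promoter table for CDX2, CDX4, NKX1-2 and EVX1, 4 of the 5 genes. The motifs searched on both strands were the octamer ATGCAAAT, bound by POU factors, the TCF/LEF core CTTTGA or CTTTGT, the CDX core TTTATG or TTTATT, the retinoic acid receptor half-site AGGTCA and the CCAAT box. CDX2 and CDX4 each held the octamer, present in 1.632% of the 35116 windows of the same length, and each held a TCF/LEF core, present in 22.79%. The 30 bases around each match are shown because they are what these promoters share, 5′ to 3′ on the strand of the gene, with the match in capitals. In GENCODE a longer CDX2 transcript covers this window, so for that gene it may be read as transcribed.
CDX2 octamer, chr13:27969404-27969433: tatcttttaaaATGCAAATtatgtttcgag
CDX4 octamer, chrX:73446994-73447023: ccttcatttgaATGCAAATgctatgtaaaa
CDX2 TCF/LEF core, chr13:27969536-27969565: cttgatttcattCTTTGAacctgtgattgg
CDX4 TCF/LEF core, chrX:73446822-73446851: gtctctatctgaCTTTGAggggagctggtc
The octamer began 107 bases before the start of CDX2 and 48 bases before that of CDX4, and the TCF/LEF core began 238 and 219 bases before. The CDX core matched in CDX2 (22.545% of all windows), the CCAAT box in CDX2, NKX1-2 and EVX1 (32.008%), and AGGTCA in none of the 4 (12.08%). A match is a description of letters and not a bound site. In hPSC CDX4 had its highest level, and CDX2 was listed at 0.0238 and 0 TPM. POU5F1, the POU factor of pluripotent cells, averaged 2889 TPM in hPSC and 4.74 TPM in pNE_M. A part of the octamer or of POU5F1 in the levels of CDX2 and CDX4 was not tested.

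On chromosome 13 the neighbour of CDX2 followed it and the gene on the other side did not. URAD, which encodes an enzyme of uric acid breakdown, lies 8.4 kb away (chr13:27977717-27988693). It held 72.6 and 63.1 TPM in pNE_M, 0.391 and 0.0809 TPM in aNE_M, 0.350 and 0 TPM in pNE_H, and 0 in the other 12 libraries. PDX1, a pancreas and duodenum factor gene 34.6 kb to the other side, did not exceed 0.192 TPM in any library. URAD was picked with earlier results of these data known and reached 1 TPM in the pNE_M libraries alone, so its values are a description, with no test.

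**Figure D2:**
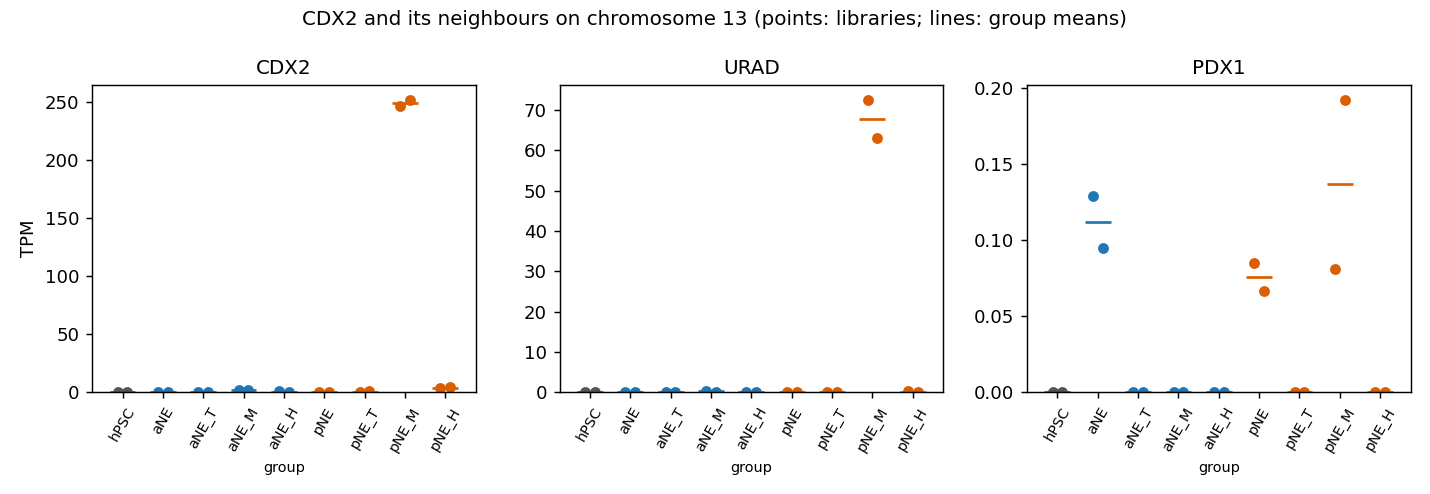
TPM (vertical axes, linear, a separate scale for each gene) of CDX2 and its neighbours URAD and PDX1 in the 9 groups. Points are libraries and lines are means of 2 libraries. URAD is at 63.1 TPM or more in both pNE_M libraries and at 0.391 TPM or less in all others, while PDX1 stays at 0.192 TPM or less throughout.

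Midbrain medium was given to cells of both origins, which sets origin against the same medium. Of the 5 genes, 4 (CDX1, CDX2, CDX4 and NKX1-2) were higher in both pNE_M libraries than in both aNE_M libraries, and 1, EVX1, was lower. Of all 17033 genes, 21.5% had non-overlapping higher and 31.2% non-overlapping lower values in this comparison, and the choice of the 5 genes used it, so nothing is read from the count. The differences on log2(TPM + 1), pNE_M minus aNE_M, were 6.53 for CDX2, 5.99 for CDX1, 1.13 for NKX1-2, 0.59 for CDX4 and -1.24 for EVX1.

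Genes of the HOX clusters differed with origin in midbrain medium. Across all genes, 3.19% were called higher and 2.55% lower in pNE_M than in aNE_M, where a call needs a limma adjusted p under 0.05 and a log2 difference of at least 1. All 12 HOX genes of groups 1 to 4 were called higher, with a median difference of 5.41 on log2(TPM + 1) against -0.04 for all genes, although HOXA4 and HOXC4 passed the filter on low values through the pNE_M libraries alone. Of groups 5 to 9, which pattern the trunk, 10 of 15 genes passed that filter, 8 of them through the pNE_M libraries alone, so their levels are given with no count of calls. The other two were HOXA5, which averaged 15.6 TPM in pNE_M and 0.0485 TPM in aNE_M (limma adjusted p = 2.19e-08), and HOXB5, with 14.0 TPM and 0.0175 TPM (limma adjusted p = 9.56e-09). HOXB9 averaged 142 TPM in pNE_M and 0.133 TPM in aNE_M, HOXB6 130 TPM and 0, and HOXA7 28.4 TPM and 0. HOXA9, HOXC8, HOXC9, HOXD8 and HOXD9 were not tested because they did not reach 1 TPM in 2 libraries, HOXC8 with 1.09 and 0.697 TPM in pNE_M being the nearest, and none of the 12 genes of groups 10 to 13 reached the filter. HOXB9 was thus the HOX gene of the highest group number with a mean above 1 TPM.

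**Figure D3:**
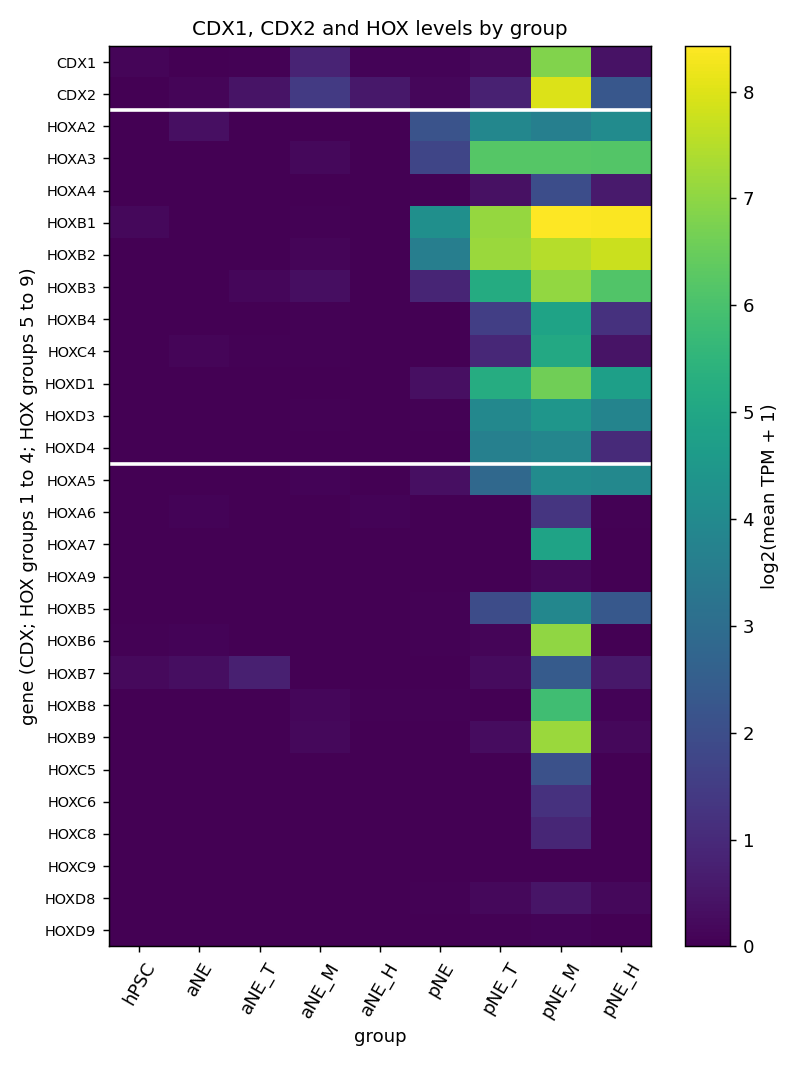
Colour gives log2(mean TPM + 1) of CDX1, CDX2 and HOX genes of groups 1 to 4 (11 of the 12) and 5 to 9 (rows) in the 9 groups (columns), each a mean of 2 libraries. HOXB1 is also bright in pNE (17.3 TPM), pNE_T (136 TPM) and pNE_H (330 TPM), whereas HOXA7, HOXB6, HOXB8 and HOXB9 are bright in the pNE_M column, where CDX1 and CDX2 are.

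Of 12 WNT-response genes, 2 were called higher in pNE_M than in aNE_M (RNF43 and LGR5), 2 lower (DKK1 and APCDD1) and 8 neither, with a median difference of 0.24 on log2(TPM + 1). LGR5, at 2.82 TPM in pNE_M, passed the filter through those libraries alone. AXIN2, a feedback gene switched on by beta-catenin, averaged 270 TPM in pNE_M and 313 TPM in aNE_M, a log2 difference of -0.21 ± 0.09 (SE, limma adjusted p = 0.163). SP5, another direct target, averaged 690 TPM and 590 TPM (limma adjusted p = 0.760), and LEF1 162 TPM and 139 TPM (limma adjusted p = 0.545). DKK1, a secreted WNT inhibitor, was 94.7 TPM in pNE_M and 423 TPM in aNE_M. Both AXIN2 libraries of pNE_M (272 and 268 TPM) lay below both of aNE_M (315 and 312 TPM). CDX1 and CDX2 differed 144-fold and 145-fold between the same groups, and a part of WNT signalling in this was not tested.

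**Figure D4:**
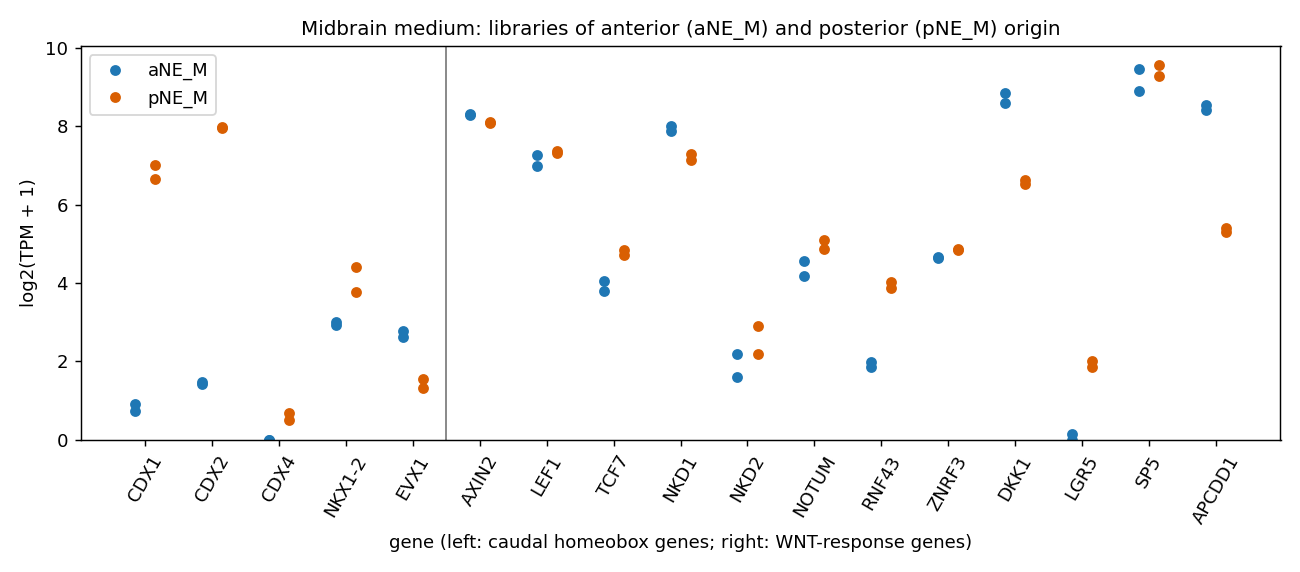
Log2(TPM + 1) in the 2 aNE_M libraries (blue) and the 2 pNE_M libraries (orange) for the 5 caudal homeobox genes (left of the line) and 12 WNT-response genes (right). CDX1 and CDX2 are separated by 5.99 and 6.53 on this scale, AXIN2, LEF1, SP5 and ZNRF3 lie close together, and DKK1 and APCDD1 are higher in aNE_M.

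Retinoic acid response genes were higher in the pNE_M cultures than in aNE_M. Of 11 genes, 9 were called higher and 0 lower, with a median log2 difference of 1.98. CYP26A1, which breaks down retinoic acid, averaged 31.2 TPM in pNE_M and 1.63 TPM in aNE_M, RARB 4.82 TPM and 0.471 TPM, and DHRS3 16.8 TPM and 1.26 TPM. The list shares 2 genes with the HOX list, HOXB1 among them. Of 11 FGF-ERK response genes, 1 (DUSP5) was called higher and 0 lower, and DUSP6 averaged 253 TPM and 226 TPM. Without aNE_M library 1 the DUSP5 difference, 0.98 on log2(TPM + 1), was below the limit of 1 and 1 other gene was called lower.

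The other genes of caudal progenitors did not share one direction between the origins. Of 20 listed genes, 17 were tested, and WNT5A, CYP26A1, HES3, MSX1 and TBX3 were called higher in pNE_M while SP8, FGF3, FGF8 and FGF17 were called lower. TBXT, the mesoderm factor expressed with NKX1-2 in neuromesodermal progenitors, held 1.21 and 1.94 TPM in pNE_M and 2.72 and 4.01 TPM in aNE_M and was not called. FGF17 averaged 26.0 TPM in pNE_M and 80.2 TPM in aNE_M, and WNT5A 23.5 TPM and 5.87 TPM. The call of HES3 was lost without any 1 of the 4 libraries (limma adjusted p = 0.0636 to 0.123) and that of FGF8 without pNE_M library 2 (limma adjusted p = 0.0675). SP8 fell short of the log2 limit under median-ratio scaling (-0.9993) and quantile normalization (-0.986).

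Markers of other cell types in which CDX2 or EVX1 is known were measured beside them, and their part in the result was not tested. Of 9 tested trophoblast and amnion markers, 2 (HAND1 and KRT7) were called higher in pNE_M and 0 lower. HAND1, like CDH17 below, passed the filter through the pNE_M libraries alone. The summed level of the 12 listed genes was 21.5 to 22.1 TPM in pNE_M and 11.8 to 19.5 TPM in aNE_M, with GATA3 at 0.279 TPM and ELF5 at 0.0162 TPM in pNE_M. Of 11 tested streak and endoderm markers, 4 were called higher, GATA6, CER1 and CDH17 among them, and 3 lower, MIXL1, EOMES and APLNR. Their sum over 12 genes was 58.2 to 64.1 TPM in pNE_M and 163 to 190.3 TPM in aNE_M. KRT7 was no longer called without pNE_M library 1 or either aNE_M library (limma adjusted p = 0.0961 to 0.359), nor CDH17 without aNE_M library 1 or either pNE_M library (limma adjusted p = 0.112 to 0.228). SOX17 was listed at 0 in pNE_M, FOXA2 averaged 0.0445 TPM and the intestinal genes VIL1 and CDH17 0.129 TPM and 1.85 TPM.

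MIXL1, a primitive streak gene, averaged 86.5 TPM in aNE_M against 11.5 TPM in pNE_M, and EOMES 16.5 TPM against 0.296 TPM, so both had their higher level in the group where EVX1 had its own. Of 14 presomitic and paraxial mesoderm markers, 6 were tested and TCF15 alone was called higher in pNE_M, with sums of 39.7 to 41.5 TPM in pNE_M and 26.2 to 26.4 TPM in aNE_M. The defining genes TBX6 and MSGN1 averaged 0.261 TPM and 0.206 TPM in pNE_M. Of 10 neural markers, NCAM1 was called higher and SOX3 and PAX6 lower. Of 9 tested genes of the interneuron domain that later expresses EVX1, and of neurons, 2 were called higher (NEUROG2 and LHX1) and 5 lower, with LHX5 at 0 in pNE_M and 15.2 TPM in aNE_M. LHX1 was not called without aNE_M library 1 or pNE_M library 1 (limma adjusted p = 0.152 and 0.194). In bulk cultures, a smaller share of cells expressing a gene and less of its RNA per cell cannot be told apart.

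Within the posterior origin, all 5 genes had higher values after midbrain medium than at day 2. Plating density was 150000 cells per cm2 for pNE_M and 37500 for pNE, so medium, time and density cannot be told apart here. Both pNE_M libraries exceeded both pNE libraries for 5 of 5 genes, and 27.6% of all genes were higher without overlap. The choice of the 5 genes used these levels, so nothing is read from the count. The log2 differences were 7.83 for CDX2, 6.75 for CDX1, 1.43 for EVX1, 1.16 for NKX1-2 and 0.42 for CDX4. Over all genes 4.87% were called higher and 7.85% lower. Of the caudal progenitor list, 7 of 17 were called higher, among them MSX1 (656 TPM against 0.925 TPM) and TBXT, and 2 lower, CYP26A1 and HES3. WNT-response genes rose for 10 of 12, with AXIN2 at 270 TPM against 10.05 TPM. Of the retinoic acid list, 3 of 11 were called higher and 5 lower, and of the FGF-ERK list 2 of 11 higher and 0 lower. HOX genes rose for 11 of 12 and fell for 1 in groups 1 to 4. Those 12 include HOXA4 and HOXC4, which passed the filter through the pNE_M libraries alone, as did LGR5 of the WNT list. In groups 5 to 9, HOXA5 rose from 0.262 TPM to 15.6 TPM and HOXB5 from 0.0400 TPM to 14.0 TPM.

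The anterior origin was compared in the same way, with its own day-2 cultures. Density again differed along with medium and time, at 75000 cells per cm2 for aNE_M and 37500 for aNE. Here CDX1 and CDX2 differed by 0.83 and 1.33 on log2(TPM + 1) between aNE_M and aNE, NKX1-2 by 1.70 and EVX1 by 2.46. Each was higher in aNE_M without overlap, while CDX4 went from 0.127 TPM to 0. Of all 17033 genes, 5159 were higher and 5867 lower without overlap, so nothing is read from the lack of overlap. Over all genes 4.34% were called higher and 7.63% lower. WNT-response genes again rose for 10 of 12, with AXIN2 at 313 TPM against 5.91 TPM. Of the FGF-ERK list, 8 of 11 were called higher and 1 lower, and of the retinoic acid list 2 of 11 higher and 2 lower. None of 12 and none of 10 HOX genes in groups 1 to 4 and 5 to 9 were called by limma, and 0 of either had an unadjusted p below 0.05. However, 2 of the 12 and 8 of the 10 passed the filter through the pNE_M libraries alone. No gene of either list averaged 1 TPM or more in aNE or aNE_M, so nothing is read from the lack of calls. Of the caudal list 8 of 17 rose, TBXT and FGF17 among them, and CYP26A1, HES3 and SOX2 fell. MIXL1, EOMES and APLNR were the streak and endoderm markers that rose, and GSC, CER1 and VIL1 fell.

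Posterior cells in forebrain medium carried the same day-2 treatment as pNE_M and held CDX2 at 0.274 and 1.12 TPM and CDX1 at 0.212 and 0.114 TPM. All 5 genes were higher in both pNE_M libraries than in both pNE_T libraries, as were 28.3% of all genes. These levels also entered the choice of the 5 genes, so nothing is read from the count. CDX2 differed by 7.25 and CDX1 by 6.60 on log2(TPM + 1), and NKX1-2, at 0.0876 TPM in pNE_T, by 3.97. Over all genes 3.31% were called higher and 5.29% lower in pNE_M. Of the HOX genes of groups 1 to 4, 6 of 12 were called higher and 1 lower. Those 12 include HOXA4 and HOXC4, which passed the filter through the pNE_M libraries alone. HOXA5 averaged 6.24 TPM and HOXB5 2.86 TPM in pNE_T, both called lower there than in pNE_M. The HOXA5 difference of 1.21 on log2(TPM + 1) fell below the limit without pNE_T library 1 (0.91) or pNE_M library 1 (0.9951), and its call was lost in a fit of these groups alone (limma adjusted p = 0.0893). HOXC4 averaged 33.0 TPM in pNE_M and 0.931 TPM in pNE_T, and HOXA3 73.1 TPM and 72.1 TPM. WNT-response genes were called higher for 11 of 12, with SP5 at 690 TPM against 0.0931 TPM. That list includes LGR5, which passed the filter through the pNE_M libraries alone.

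Retinoic acid response genes were split between these media. RARB (4.82 TPM in pNE_M and 81.5 TPM in pNE_T), DHRS3 (16.8 TPM and 128.9 TPM) and CYP26B1 were among the 4 called lower in pNE_M, and RARG, STRA6 and HOXB1 were called higher. The neural markers SOX2, SOX3, PAX6, NES and SOX21 were called lower, 5 of 10, and none higher. PAX6 averaged 0.370 TPM in pNE_M and 34.6 TPM in pNE_T.

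In hindbrain medium CDX2 was low but was measured in both pNE_H libraries. All 5 genes were lower in both pNE_H libraries than in both pNE_M libraries, as were 29.6% of all genes. Since the 5 genes were chosen on these levels, nothing is read from the count. CDX2 differed by -5.69, CDX1 by -6.41 and NKX1-2 by -3.52 on log2(TPM + 1). Over all genes 3.0% were called higher and 2.99% lower in pNE_H. HOXB5 was called lower, at 4.04 TPM in pNE_H, and HOXA5, at 14.5 TPM in pNE_H and 15.6 TPM in pNE_M, was not called. WNT-response genes were called lower for 11 of 12, with AXIN2 at 69.7 TPM in pNE_H. The 12 include LGR5, which passed the filter through the pNE_M libraries alone. Retinoic acid response genes were called higher for 4 of 11, RARA, RARB and DHRS3 among them, and lower for RARG. The RARA difference of 1.02 fell below the limit without pNE_M library 1 (0.96) or pNE_H library 1 (0.94). The comparisons of pNE_M with pNE, pNE_T, pNE_H and aNE_M share the pNE_M libraries, so their values are set side by side only.

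At day 2, before the media were changed, none of the CDX genes separated the origins. CDX1, CDX2 and CDX4 each overlapped between pNE and aNE and none exceeded 0.162 TPM. The day-2 treatments did separate response genes. Over all genes 2.37% were called higher and 1.48% lower in pNE than in aNE. Of the retinoic acid list 7 of 11 were called higher, RARB averaging 20.7 TPM and 1.18 TPM, and of the FGF-ERK list 9 of 11 were higher and EGR1 lower. Of the WNT list 1 of 12, TCF7, was called higher and none lower. HOX genes of groups 1 to 4 were called higher for 5 of 12, and none of the 10 tested in groups 5 to 9 were called by limma, with 0 at an unadjusted p below 0.05. Of those 10, 8 passed the filter through the pNE_M libraries alone, so nothing is read from their lack of calls. The others, HOXA5 and HOXB5, averaged 0.262 TPM and 0.0400 TPM in pNE and 0.0179 TPM and 0 in aNE.

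CDX4 and NKX1-2 were lower in both day-2 groups than in undifferentiated cells, without overlap. CDX4 was 20.1-fold lower in pNE and 20.5-fold lower in aNE, and NKX1-2 4.51-fold and 21.3-fold lower. Of all 17033 genes, 5087 were lower without overlap in pNE and 5429 in aNE, so nothing is read from the lack of overlap. By the limma call, 5.74% of all genes were lower in pNE and 6.19% in aNE. Pluripotency markers were called lower for 7 of 8 in pNE and 6 of 8 in aNE, NANOG averaging 76.8 TPM in hPSC, 0.322 TPM in pNE and 0.253 TPM in aNE. LIN28A, an RNA-binding protein gene that persists in early progenitors, was not called in either. Both comparisons use the same hPSC libraries.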

How the data were processed

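The authors deposited 1 table of TPM values, with 18 columns that matched the sample titles and 0 columns of any other sample. Per the submitters' processing notes, the tools were bcl2fastq, FastQC, Trim Galore, kallisto and deepTools and the build was hg38; versions and annotation are not given in the sources used here. Of 37550 rows, 7898 had a transcript ID and no symbol, and 99.764% of the 29652 symbols matched a human gene name. Strand was not stated. Genes reaching 1 TPM in 2 or more libraries (17033) were analysed as log2(TPM + 1), a scale that understates the change of low genes. Limma 3.58.1 (R 4.3.3) modelled the 9 group means in 1 fit of 18 libraries, leaving 9 residual degrees of freedom, with a variance trend. Two-sided p-values were Benjamini-Hochberg adjusted across the tested genes, and calls required adjusted p below 0.05 with a log2 difference of 1 or more in size. The script was tested on simulated data. Of 15 fitted comparisons, the 8 that bear on these genes are reported. Lists are described by their counts and medians, with no set test. Named genes were the 5 members, genes of the lists, and the 5 genes with the highest Pearson's r for each member. The members and lists were chosen with earlier results of these data known. Sequences and positions came from RefSeq (GRCh38.p14). Alternatives were quantile normalization, median-ratio scaling, no filter, a filter at 5 TPM, a pseudocount of 0.1, fitting only the groups compared, a replicate block and leaving out each library. Values of some list genes are not reported here, though the list counts and sums include them.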

Additional observations from a re-analysis of the deposited data

Results flagged for a closer look

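CDX4 was the 1 gene of the 5 for which both libraries of each origin moved in opposite directions in the same medium. Between day 2 and midbrain medium it went from 0.145 and 0.113 TPM to 0.414 and 0.603 TPM in posterior cells, a difference of 0.42 on log2(TPM + 1). In anterior cells it went from 0.146 and 0.107 TPM to 0 in both libraries, a difference of -0.17. The gap between the origins was 0.588 on log2(TPM + 1), at levels under 1 TPM, and was not tested. Plating density also differed between day 2 and day 4 in both origins. Of all 17033 genes, 4704 were higher without overlap in pNE_M than in pNE, and 5867 were lower in aNE_M than in aNE. The number of genes doing both was not counted, so nothing is read from CDX4 being 1 of the 5.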

How the results depend on the processing

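For the member genes, 25 differences in the midbrain and hindbrain media and 5 at day 2 were rerun with another pseudocount, with both scalings and without single libraries, and 0 changed direction. CDX2 in pNE_M was 255.0 TPM with median-ratio scaling and 255.6 with quantile normalization, CDX2 in aNE_M 1.948 and NKX1-2 in hPSC 30.93 with quantile normalization. A pseudocount of 0.1 widened the differences, for CDX2 between pNE_M and aNE_M to 7.10 on the log2 scale. The balance of higher and lower calls turned where it was near even. Against hPSC, pNE had 2188 calls and aNE 2303 with median-ratio scaling, and 2194 and 2313 with quantile normalization, slightly more of them lower. For pNE_H against pNE_M there were 1332 calls with a pseudocount of 0.1, also slightly more of them lower, and 970 to 1073 without single libraries. For pNE_M against aNE_M, a pseudocount of 0.1 gave 9 caudal calls (4 higher, 5 lower), 5 neural calls (3 higher, 2 lower), and for aNE_M against aNE 2 calls among HOX groups 1 to 4. For pNE against aNE it gave 1 call among HOX groups 5 to 9. Streak and endoderm calls were 5 (2 higher, 3 lower) at the 5 TPM filter and 4 (1 higher, 3 lower) in a fit of the compared groups, which lost residual degrees of freedom. That fit also gave 0 FGF-ERK calls and 1 trophoblast call, as did no filter for the latter, and for pNE against aNE 355 calls in place of 655 and 0 WNT calls. Without single libraries the counts for pNE_M against aNE_M were 7 to 9 caudal, 1 to 2 FGF-ERK, 1 to 2 mesoderm and 1 to 2 trophoblast calls, and for pNE against aNE 1 to 2 WNT calls. Where an arm was left with 1 library, that library was assumed to vary like the other groups. Without single libraries the SP5 difference ran from -0.0397 (without aNE_M library 2) to 0.5379, and the HOXA5 difference of pNE_H and pNE_M from -0.3012 to 0.1317 (without pNE_M library 1), none called. The fit of the compared groups ended the calls of GATA6, CER1, TCF15, NCAM1, LHX1, KRT7, CDH17 and DUSP5 (adjusted p = 0.0532 to 0.275) and of TCF7 (0.0673), and a pseudocount of 0.1 ended that of MSX1 (0.0784). The replicate numbers did not pair the samples, since over 36 group pairs the correlation of same-numbered deviations ran from -0.090 to 0.076. With the replicate block, calls for pNE_M against aNE_M stayed at 978, and of the genes named only CDH17 lost its call (adjusted p = 0.0519). The cause of these shifts was not tested beyond what each setting changes. Depth is unknown from TPM, so values under 1 TPM, which include most CDX4 levels, cannot be given a counting error.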

Other observations

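The genes with the widest gap, on log2(TPM + 1), between pNE_M and the group with the next highest mean included 3 outside the lists used above. They were looked up after their values were seen. LY6G6D, of a family of surface proteins, held 58.7 and 56.2 TPM in pNE_M, a mean of 57.4 ± 1.82 (SD, n = 2), against 3.23 ± 0.112 in aNE_M. MYOD1, the skeletal muscle determination factor, held 12.4 and 14.8 TPM in pNE_M, a mean of 13.6 ± 1.70, against 0.528 ± 0.152 in pNE_H. C11orf87 averaged 51.9 ± 0.405 TPM in pNE_M and 4.93 ± 0.786 TPM in aNE_M. Beside MYOD1, the paraxial mesoderm genes TBX6 and MSGN1 averaged 0.261 TPM and 0.206 TPM in pNE_M and MEOX1 26.0 TPM. MEOX1 was not particular to pNE_M, with 17.8 TPM in pNE_T, 15.7 TPM in pNE_H and 15.1 TPM in aNE_M.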
